A study of Mus musculus with 24 samples.

Results

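Asb12, Gpm6a and Serpina3b are 3 genes with large daily rhythms in the fat of control mice that belong neither to the circadian clock nor to fat metabolism. Every probe set that the platform's gene table assigns to one of them was taken, which gave 4 probe sets among the 34390 on the array, and the 3 genes are 3 of the 22180 that have a probe set of their own. They were chosen by the size of their 24-h rhythm in controls, so that rhythm is described here and not tested. The tissue was epididymal fat (eWAT), a white fat pad attached to the epididymis, and 24 Affymetrix arrays were used, each for 1 mouse. Control mice (CON, Syt10-Cre/Cre x Bmal1-+/-) and mutant mice (MUT, Syt10-Cre/Cre x Bmal1-flox/-) were both homozygous for Cre under the Syt10 promoter and both carried 1 inactive Bmal1 allele. The remaining Bmal1 allele was wild type in CON and floxed in MUT, and the clock of the suprachiasmatic nucleus (SCN), the hypothalamic pacemaker, is disabled in MUT. Mice spent 2 weeks in light and dark cycles before constant darkness, and on the second day 3 mice of each genotype were killed at each circadian time (CT), 1, 7, 13 or 19, which made 8 groups. Ages were not stated. The labels name eWAT in the titles and mediobasal hypothalamus in the source field. Ranked by mean signal among the genes tested, the median of the 9 adipocyte markers tested was at the percentile 99.8. That of the 3 hypothalamic neuropeptide genes tested, of 6 with a probe set, was at 39.1.

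Asb12 encodes an ankyrin repeat protein with a SOCS box, the module through which such proteins join elongins B and C and cullin-5 in a ubiquitin ligase and bring it its substrates. Gpm6a encodes the membrane glycoprotein M6A, which spans the membrane in the manner of myelin proteolipid protein and is best known from neurons, where it promotes the outgrowth of neurites and filopodia. Serpina3b belongs to a cluster of serpin genes on mouse chromosome 12, relatives of the secreted protease inhibitor alpha-1-antichymotrypsin. The daily rhythm of fat is shaped by clocks in its own cells, and by signals that follow the SCN, such as feeding time, hormones, nerves and body temperature.

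The sequences before the starts of Asb12 and Serpina3b are shown because in CON Asb12 was lowest and Serpina3b highest at the same time, CT7. Gpm6a was also lowest in CON at CT7, and its 2 entries were searched but are not shown. Each line gives the 250 bases before the gene's start on its own strand, from RefSeq (GRCm38.p6), at chrX:95478130-95478379 on the minus strand for Asb12 and at chr12:104127746-104127995 on the plus strand for Serpina3b. The capitals in Serpina3b mark its 1 motif match.
Asb12: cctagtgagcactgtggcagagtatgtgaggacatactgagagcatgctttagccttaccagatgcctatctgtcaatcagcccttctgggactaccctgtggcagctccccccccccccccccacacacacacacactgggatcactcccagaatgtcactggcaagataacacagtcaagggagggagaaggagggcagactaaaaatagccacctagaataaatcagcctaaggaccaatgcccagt
Serpina3b: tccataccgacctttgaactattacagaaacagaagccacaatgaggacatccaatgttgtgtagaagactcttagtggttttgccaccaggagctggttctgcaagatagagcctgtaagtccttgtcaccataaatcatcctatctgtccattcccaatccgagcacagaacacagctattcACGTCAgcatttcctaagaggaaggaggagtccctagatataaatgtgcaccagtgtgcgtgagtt
The search covered both strands for CACGTG, the E-box bound by clock activators, TTATGTAA, the D-box bound by DBP and its relatives, AGGTCA, the core of the element bound by REV-ERB and ROR receptors, and TGACGT, the core of the cAMP response element. Serpina3b held 1 match, to TGACGT on the opposite strand, from base 66 to base 61 before the start, and 6.47% of all 32851 promoter entries hold that motif in windows of this length. With 1 match in all, no overlap between matches could arise here. Asb12 held 0 matches, and neither sequence held CACGTG, TTATGTAA or AGGTCA, which occur in 6.02%, 0.819% and 14% of the entries. The 2 Gpm6a entries held none of the 4 motifs. A match is a description of letters and not a binding site. RefSeq promoters were found for 3 of the 3 genes.

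All signals are log2 values per probe set, normalized by the authors with RMA, so that a difference of 1 is a doubling. The medians of the arrays lay between 7.80 and 7.94, and any pair of arrays correlated at 0.982 or more. The spread of signals tended to be wider in MUT. The interquartile range over the genes tested was 1.26 to 1.45 on CON arrays and 1.39 to 1.60 on MUT arrays. Quantile normalization, which gives all arrays the same spread, was tried as an alternative. Genes were tested where their brightest probe set lay above the 30th percentile of mean signal (7.42), which left 15526. Rhythm size means the log2 distance between the highest and lowest point of a 24-h cosine fitted to the group means, and its errors are SE of a limma model over all arrays. In bulk tissue, fewer cells of a type and less RNA per cell cannot be told apart.

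Asb12 was low at a single time of day in controls. In CON its signals were 8.44, 8.01 and 7.98 (CT1), then 6.40, 6.44 and 6.36 (CT7), 8.05, 8.14 and 7.51 (CT13) and 8.0, 8.41 and 8.80 (CT19). The CT7 arrays stood apart from the other times, which overlapped among themselves. In MUT the signals were 8.01, 8.17 and 8.71 (CT1), then 8.17, 7.80 and 8.28 (CT7), 8.51, 8.45 and 8.80 (CT13) and 7.98, 8.32 and 8.70 (CT19). The CT7 arrays of MUT overlapped with those at CT1 and CT19 and lay below those at CT13. The order of the group means ran from MUT CT13 (8.58 ± 0.19, SD, n = 3) through CON CT19, MUT CT19, MUT CT1, CON CT1 and MUT CT7 to CON CT13 (7.90 ± 0.34), and each neighbour in this order overlapped with the next. CON CT7 (6.40 ± 0.04) followed 1.50 lower and did not overlap.

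The brightest of the 3 CON CT7 arrays for Asb12 was 1.07 below the dimmest of the other 21 arrays. In 493 of the 15526 genes tested (3.18%) the CON CT7 arrays were below all others, and Asb12 was the 1 gene with a gap that wide. Since the CON rhythm chose the gene, this is a description. The mean of 6.40 lay at the percentile 12.7 of all genes with a probe set, close to the second Asb12 probe set, whose signals stayed between 6.09 and 6.52 on all 24 arrays and which did not pass the level filter. At such signals a fold change on an array tends to be understated. After quantile normalization the CON CT7 mean was 6.36 ± 0.05.

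The fitted CON rhythm of Asb12 was 2.02 ± 0.21 (4.05-fold) with its peak at CT19.5, although the group means were high at 3 times and low at 1. The 12-h alternation, the mean of CT1 and CT13 minus the mean of CT7 and CT19, was not part of the cosine by which the genes were chosen. For Asb12 in CON it was 0.62 ± 0.15 (adjusted p = 0.309, limma, Benjamini-Hochberg). In CON 0 of the 3 genes passed for this measure and 2 had an unadjusted p under 0.05, with 4 genes of 15526 (0.0258%) called and 6.68% under the unadjusted threshold.

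**Figure D1:**
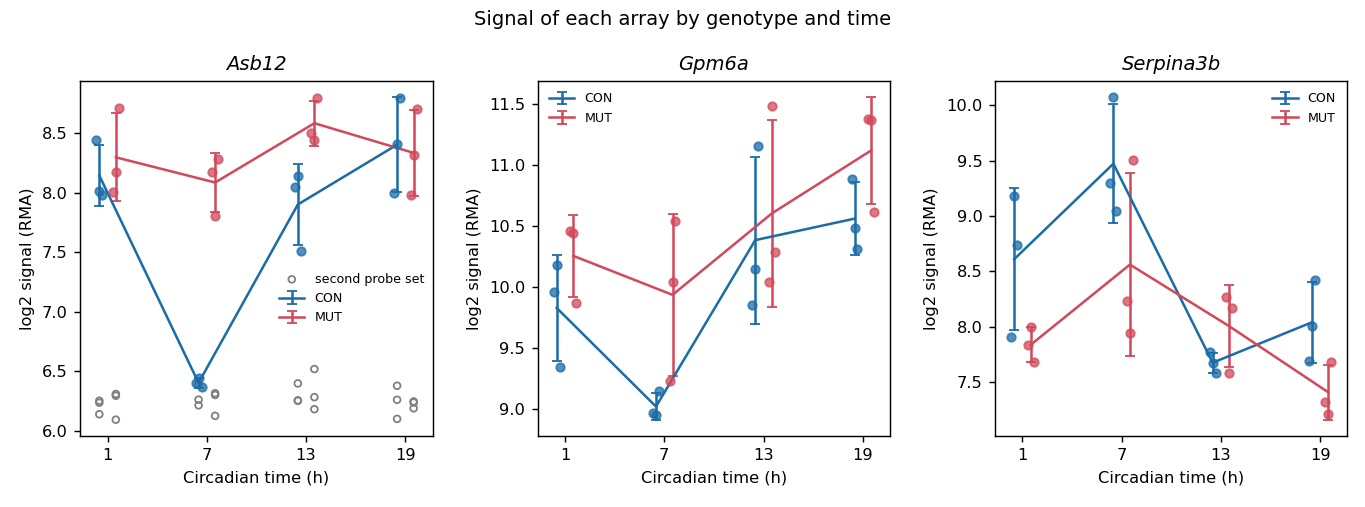
Log2 signal of every array (dots) against circadian time in hours for Asb12, Gpm6a and Serpina3b, in CON (blue) and MUT (red), with group means joined by lines and bars of 1 SD (n = 3). The 3 CON CT7 arrays of Asb12 sit between 6.36 and 6.44, next to the second probe set (open grey circles), while all other arrays of the tested probe set lie at 7.51 or above.

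Without a working SCN clock Asb12 had no rhythm that passed the test. Its fitted size in MUT was 0.38 ± 0.21, 18.8% of the size in CON (adjusted p = 0.571, limma), and its 12-h alternation in MUT was 0.23 ± 0.15 (adjusted p = 0.766). The genes were chosen by a large CON size, so percentages of that size carry the choice and were not tested. The median size of all genes was 0.18 in CON and 0.13 in MUT. Over the 3 genes, 0 passed for a 24-h rhythm in MUT and 2, Gpm6a and Serpina3b, had an unadjusted p under 0.05 and also under 0.01. Of all genes, 54 (0.348%) passed, 14.6% had an unadjusted p under 0.05 and 5.12% one under 0.01. For the 12-h alternation in MUT, 0 of the 3 genes passed and 0 had an unadjusted p under 0.05, beside 7 genes (0.0451%) and 7.37% of all.

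The daily mean of Asb12 rose in MUT from 7.71 to 8.33, by 0.61 ± 0.10 (1.53-fold, 95% interval 0.40 to 0.83, adjusted p = 0.00169, limma). A mean over the 4 times was not part of the cosine by which the genes were chosen. All 3 genes passed this test, 2 higher and 1 lower, beside 3365 genes (21.7%) in all, of which 1902 (12.3%) were higher and 1463 (9.42%) lower in MUT. With arrays shifted to the same median, 87.7% of the calls over all genes were on the higher side, against 56.5% as deposited. The median difference of all genes was 0.0034 as deposited and 0.0477 after that shift. The Asb12 difference was widest at CT7: MUT was higher by 1.68 ± 0.21 (SE) at CT7 (3.21-fold), 0.68 at CT13 and 0.15 at CT1, and at CT19 the difference was -0.069. CON and MUT arrays did not overlap at CT7 and CT13, as was true of 25.6% and 22.2% of all genes, and these differences carry the choice by the CON rhythm and were not tested. Over the 3 times other than CT7 the mean difference was 0.26.

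Gpm6a had its lowest group mean at CT7 and its highest at CT19 in both genotypes. Its CON signals were 9.96, 10.18 and 9.35 (CT1), then 8.97, 8.95 and 9.15 (CT7), 9.85, 10.14 and 11.16 (CT13) and 10.89, 10.48 and 10.31 (CT19). The CON CT7 arrays were again the lowest of all 24, by 0.08, as they were in 3.18% of all genes tested. The MUT signals were 10.46, 10.44 and 9.87 (CT1), then 9.23, 10.04 and 10.54 (CT7), 10.04, 11.48 and 10.29 (CT13) and 11.37, 11.36 and 10.61 (CT19). MUT CT19 was the highest group (11.12 ± 0.44) and CON CT7 the lowest (9.02 ± 0.11), and of the 7 steps between neighbours in order only the last, from CON CT1 to CON CT7, was free of overlap. The mice of a group differed widely, in MUT at CT13 from 10.04 to 11.48.

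The rhythm of Gpm6a was 1.63 ± 0.35 in CON with its peak at CT17.7 ± 0.83 (SE in hours) and 1.23 ± 0.35 in MUT with its peak at CT17.9 ± 1.10. The size in MUT was 75.3% of that in CON and did not pass over all genes (adjusted p = 0.178, limma). The fitted peaks were 0.23 h apart, whereas Arntl, the gene of BMAL1, peaked at CT20.5 in CON and CT15.9 in MUT, and Nr1d1, a repressor of Arntl, at CT4.65 and CT23.3. The percentage of the CON size and these differences in peak time include the CON rhythm and were not tested. The 12-h alternation was 0.32 ± 0.25 in CON and -0.098 ± 0.25 in MUT (adjusted p = 0.880 and 0.962). The CON value was 0.12 without CON CT13 replicate 3, 0.21 with array weights and 0.48 without the 3 arrays of narrowest signal spread, CON CT13 replicate 1 and CON CT7 replicates 2 and 3, and passed in none of these.

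The daily mean of Gpm6a rose from 9.95 in CON to 10.48 in MUT, by 0.53 ± 0.18 (1.44-fold, 95% interval 0.16 to 0.90, adjusted p = 0.0372, limma). MUT was higher at each of the 4 times, by 0.91 at CT7, 0.56 at CT19, 0.43 at CT1 and 0.22 at CT13 (SE 0.35 each). The arrays were free of overlap at CT7 alone, as for 25.6% of all genes. Differences at single times carry the choice by the CON rhythm and were not tested. The call ended after quantile normalization (adjusted p = 0.0672), with trended and robust variance (adjusted p = 0.0752) and without those 3 arrays (adjusted p = 0.187). It also ended without any 1 of 13 arrays, with differences from 0.42 to 0.52 and adjusted p from 0.0580 to 0.0798. These were CON CT1 replicate 3, CON CT7 replicate 2, CON CT13 replicates 1 and 2, CON CT19 replicates 2 and 3, MUT CT1 replicates 1 and 2, MUT CT7 replicates 2 and 3, MUT CT13 replicate 2 and MUT CT19 replicates 1 and 2.

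Gpm6a moved with the markers of mesothelium, the cell layer that covers the fat pad. The mean log2 signal of 11 mesothelium markers correlated with Gpm6a at r = 0.983 over the 24 arrays (Spearman 0.961), at 0.979 within the 12 CON arrays and at 0.987 within the 12 MUT arrays. Deviations from the group means also correlated, at 0.960 over the 24 arrays, and without the 2 arrays farthest from the median of the markers r was 0.982. Both values of a pair come from the same array, so they share its RNA and its normalization. The list level ran from 8.28 to 8.36 in CON at CT7, from 8.48 to 8.87 at CT1, from 8.83 to 9.31 at CT13 and from 9.06 to 9.33 at CT19. In MUT it ran from 8.41 to 9.07 at CT7, from 8.85 to 9.03 at CT1, from 8.80 to 9.78 at CT13 and from 9.13 to 9.59 at CT19. Of these 11 genes 9 passed for a 24-h rhythm in CON (17.1% of all genes did), 0 in MUT (0.348% of all), and 10 had an unadjusted p under 0.05 in MUT (limma, 14.6% of all). In the daily mean 5 were higher and 0 lower in MUT, against 12.3% and 9.42% of all genes. Their median size was 1.01 in CON and 0.81 in MUT, against 0.18 and 0.13 over all genes. Upk1b, a uroplakin of the mesothelial surface, rose in daily mean by 0.45 ± 0.12 (adjusted p = 0.0160), Lrrn4 by 0.51 ± 0.16 (adjusted p = 0.0245) and Bnc1, a zinc finger factor, by 0.34 ± 0.10 (adjusted p = 0.0262). The part of mesothelial cells in the Gpm6a result was not tested.

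**Figure D2:**
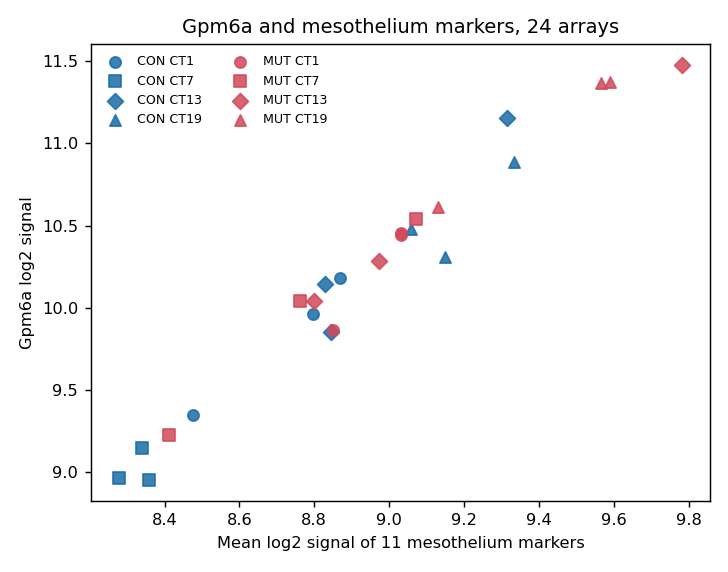
Gpm6a log2 signal against the mean log2 signal of 11 mesothelium markers on each of the 24 arrays, with CON in blue, MUT in red and a symbol for each circadian time. The points follow 1 line across genotypes and times (r = 0.983), with the CON CT7 arrays at its lower end and arrays of MUT at CT13 and CT19 at its upper end.

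Other cell type lists also correlated with Gpm6a, and differently in CON and MUT. Gpm6a was chosen by its CON rhythm, so its correlations in CON carry that choice. The 5 fibroblast and preadipocyte markers correlated with it at 0.923 over the 24 arrays, at 0.969 in CON and at 0.891 in MUT. For 5 macrophage markers the values were 0.567, 0.858 in CON and 0.274 in MUT, and for 9 adipocyte markers 0.554, 0.730 in CON and -0.392 in MUT. Among these 9, Lep had the largest rhythm size in CON, 1.38, and a size of 0.19 in MUT. The median size of the 9 was 0.0737 in CON and 0.0934 in MUT, so the list mean is not the course of most adipocyte markers. For 5 endothelium markers the correlations were 0.257, -0.151 in CON and 0.634 in MUT, and for 3 pancreas markers -0.226, 0.199 in CON and -0.646 in MUT. The mean level of the pancreas markers was low and nearly flat, from 7.84 in MUT at CT19 to 8.13 in CON at CT13. The part of these cells was not tested either. Neuron markers stand for the cells in which M6A is best known, and 6 of 11 passed the level filter. They correlated at -0.150 over the 24 arrays, at 0.230 in CON and at -0.411 in MUT. Of the neuron markers tested Stmn2 was rhythmic in CON (0.49 ± 0.12, adjusted p = 0.0204, limma) and the other 5 did not pass. Beside the 17.1% of all genes that passed in CON, 1 of 6 is no result about the list. Of the Schwann cell markers 4 had a probe set, and Mbp and Sox10 passed the level filter, at a correlation of 0.115.

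The genes most like Gpm6a by Pearson's r over the 24 arrays were Pkhd1l1 (0.984), Daglb, a lipase that makes an endocannabinoid (0.979), Dpp4, a surface peptidase of adipose progenitors (0.976), Upk3b, a mesothelial uroplakin (0.976), and Muc16, a surface mucin (0.969). Upk3b and Muc16 are also in the mesothelium list, and Dpp4 is in the progenitor list. Within the 12 MUT arrays their r was from 0.968 to 0.993. Their fitted sizes ran from 0.65 to 1.38 in CON and from 0.51 to 1.18 in MUT, with peaks from CT17.9 to CT18.3 in CON and from CT17.7 to CT18.3 in MUT. In the relatives of Gpm6a, Gpm6b was the 1 other proteolipid family gene measured, at a size of 0.20 ± 0.11 in CON and 0.0713 ± 0.11 in MUT (adjusted p = 0.376 and 0.930, limma).

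Serpina3b was highest in CON at the time when the other members were lowest. Its CON signals were 7.91, 9.18 and 8.74 (CT1), then 9.30, 10.07 and 9.05 (CT7), 7.77, 7.67 and 7.59 (CT13) and 7.69, 8.01 and 8.42 (CT19). The CON CT7 arrays exceeded all arrays at CT13 and CT19, and overlapped with CT1. The MUT signals were 7.84, 8.0 and 7.68 (CT1), then 8.24, 7.95 and 9.50 (CT7), 8.27, 7.58 and 8.17 (CT13) and 7.32, 7.22 and 7.69 (CT19). At CT7 in MUT 1 mouse was high at 9.50 and the other 2 lay among the remaining MUT arrays. CON CT7 was the highest group mean (9.47 ± 0.54) and MUT CT19 the lowest (7.41 ± 0.25), and each of the 8 groups overlapped with the next in order.

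The rhythm of Serpina3b was 1.71 ± 0.33 in CON, peaking at CT4.79 ± 0.73 (SE in hours), and 1.17 ± 0.33 in MUT, peaking at CT7.55 ± 1.06. The MUT size was 68.2% of that in CON and did not pass over all genes (adjusted p = 0.162, limma). With array weights it was 1.54 and passed (adjusted p = 0.0208), in a fit that called 555 genes rhythmic in MUT instead of 54. Without MUT CT7 replicate 3, the high mouse, it was 0.70 (adjusted p = 0.437). The fitted peak was 2.76 h later in MUT, the opposite direction to Arntl and Nr1d1. This difference and the percentage of the CON size carry the choice by the CON rhythm and were not tested. The 12-h alternation was -0.61 ± 0.23 in CON (adjusted p = 0.628) and -0.0635 ± 0.23 in MUT (adjusted p = 0.971).

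The daily mean of Serpina3b fell by 0.50 ± 0.16 on the log2 scale, from 8.45 in CON to 7.95 in MUT (1.41-fold, 95% interval of the difference -0.83 to -0.16, adjusted p = 0.0340, limma). The difference was -0.91 at CT7, -0.77 at CT1, -0.63 at CT19 and 0.33 at CT13 (SE 0.33 each), with arrays free of overlap at CT19 alone, as for 27.3% of all genes. Differences at single times carry the choice by the CON rhythm and were not tested. The call ended after quantile normalization (adjusted p = 0.0590), with array weights (adjusted p = 0.105), with trended and robust variance (adjusted p = 0.0693) and without the 3 arrays of narrowest spread (adjusted p = 0.171). It ended without any 1 of 11 arrays, with differences from -0.49 to -0.42 and adjusted p from 0.0505 to 0.0706. These were CON CT1 replicates 2 and 3, CON CT7 replicate 2, CON CT13 replicate 1, CON CT19 replicate 3, MUT CT1 replicate 3, MUT CT7 replicates 1 and 2, MUT CT13 replicate 2 and MUT CT19 replicates 1 and 2.

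**Figure D3:**
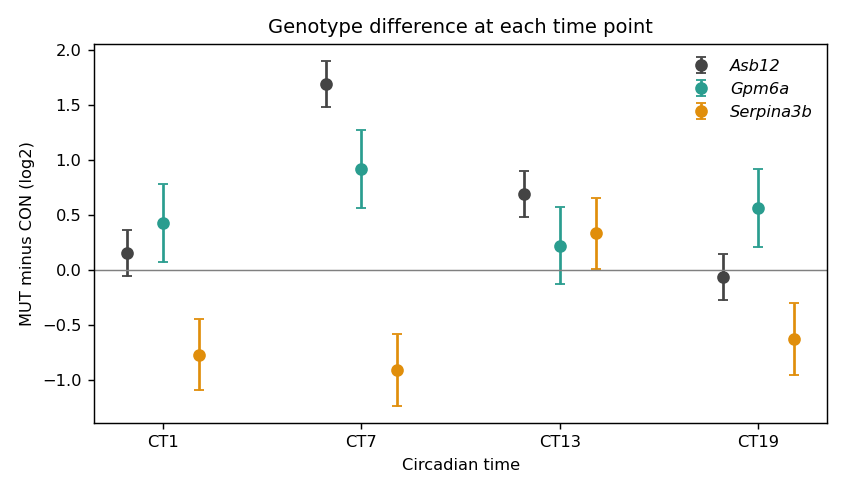
MUT minus CON difference in log2 signal at each circadian time for Asb12, Gpm6a and Serpina3b, with bars of 1 SE of the limma model (3 arrays per group). Asb12 stands at 1.68 at CT7 and near 0 at CT1 and CT19, Gpm6a is above 0 at every time, and Serpina3b is below 0 at every time other than CT13.

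The Serpina3 cluster is large in the mouse, and the array resolved few of its genes. Of 11 genes listed, 5 had a probe set with their symbol alone, and only Serpina3b and Serpina3n passed the level filter. Serpina3n, the acute phase member of the cluster, was bright at a mean of 12.7 and had a size of 0.28 ± 0.13 in CON and 0.18 ± 0.13 in MUT, neither past the threshold (adjusted p = 0.226 and 0.678, limma). Serpina3a, Serpina3i and Serpina3j had mean signals of 6.90, 6.55 and 6.77, under the filter. Cross-hybridisation of the Serpina3b probes with transcripts of other cluster members was not tested. Of 13 other clade A serpins with a probe set, 4 passed the level filter. Of these 4, 0 passed for a rhythm in CON (1 at an unadjusted p under 0.05, limma), which at 17.1% of all genes is no result about so few. Serpina1a had a size of 0.57 ± 0.19 in CON. Serpina11 was lower in MUT by daily mean (-0.16 ± 0.05, adjusted p = 0.0392, limma), 1 of the 4, beside 9.42% of all genes. Of 9 acute phase genes tested, Lbp, which encodes the lipopolysaccharide binding protein, was rhythmic in CON (0.84 ± 0.15, CT16.5, adjusted p = 0.00190, limma). Its daily mean rose in MUT by 0.38 ± 0.07 (adjusted p = 0.00323, limma), and the other 8 passed in neither. Over all genes 17.1% passed in CON and 12.3% were higher in the daily mean. Beside these shares 1 of 9 is no result about the list.

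Many clade A serpins are made in the liver, and hepatocyte markers were high on single arrays. The mean level of 4 hepatocyte markers ran from 8.35 to 10.6 in CON at CT19 and from 8.33 to 9.83 in MUT at CT13, against 8.19 to 8.85 in the other groups. Serpina3b correlated with it at 0.0374 over the 24 arrays, at -0.243 within CON and at 0.503 within MUT. With the 4 skeletal muscle markers it correlated at 0.0285, and at -0.521 within CON and 0.782 within MUT. With the 11 mesothelium markers Serpina3b correlated at -0.667, and at -0.754 and -0.470 within CON and MUT. With the 5 progenitor markers the values were -0.618, -0.691 in CON and -0.402 in MUT. For the 9 adipocyte markers they were -0.561, -0.668 in CON and 0.319 in MUT, and for the 5 macrophage markers -0.422, -0.487 and -0.346. The part of these cells in its result was not tested. The genes most like Serpina3b over the 24 arrays were Fzd6, a Wnt receptor (0.840), Slc5a6, a vitamin transporter (0.819), Ppa1, a pyrophosphatase (0.816), Olfr703 (0.804) and Aldh4a1, a mitochondrial enzyme of proline breakdown (0.803). Within MUT their r was from 0.636 to 0.820, and their fitted peaks in CON ran from CT2.37 to CT6.49.

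The relatives of Asb12 that were tested had small rhythms. All 18 Asb genes had a probe set and 12 passed the level filter. Of the other 11, 0 passed for a rhythm in CON (0 at an unadjusted p under 0.05, limma), where 17.1% of all genes passed. In MUT 0 passed and 1 had an unadjusted p under 0.05, against 0.348% and 14.6% of all genes, shares at which 0 of 11 and 1 of 11 are no result about the family. The fitted sizes ran from 0.0235 to 0.20 in CON and from 0.0478 to 0.25 in MUT. Their medians of 0.10 and 0.0840 were below the 0.18 and 0.13 of all genes. Asb8 had the largest size in MUT, 0.25 ± 0.06 (adjusted p = 0.106). In the daily mean 1 of the 11, Asb16, was lower in MUT (-0.10 ± 0.03, adjusted p = 0.0467, limma) and 0 were higher. Over all genes 9.42% were lower and 12.3% higher, so these counts are no result about the family. Of the 7 shared parts and partners of the cullin-5 ligases, 1, Cul5 itself, was rhythmic in CON (0.28 ± 0.06, CT23.5, adjusted p = 0.00924, limma). In MUT 0 of the 7 were (1 at an unadjusted p under 0.05, limma). Beside the shares of all genes given above, these counts are no result about the 7 genes. Eloc, the gene of elongin C, rose in MUT by 0.31 ± 0.06 (adjusted p = 0.00231, limma). Rnf7, the RING subunit, fell by 0.14 on the log2 scale (adjusted p = 0.0373, limma). Each was the 1 gene of the 7 called in its direction, beside 12.3% higher and 9.42% lower of all genes.

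**Figure D4:**
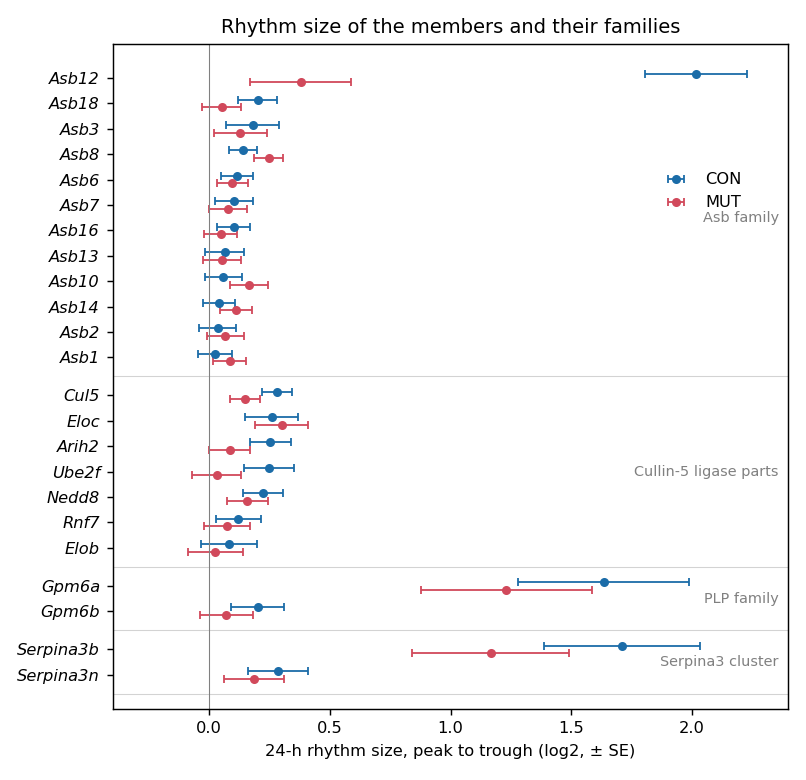
Size of the fitted 24-h rhythm (log2, peak to trough, with bars of 1 SE) in CON (blue) and MUT (red) for the tested genes of the Asb family, the cullin-5 ligase parts, the proteolipid (PLP) family and the Serpina3 cluster. Asb12, Gpm6a and Serpina3b lie at 1.63 to 2.02 in CON, and their relatives at 0.28 or below.

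The genes most like Asb12 over the 24 arrays were Zfp385a (0.891), Gypc, a membrane glycoprotein (0.886), Plxna1, a semaphorin receptor (0.886), Timm23, a subunit of the mitochondrial import channel (0.883), and Lnx2, a ubiquitin ligase (0.877). Within CON their r was from 0.887 to 0.929 and within MUT from 0.536 to 0.704. Their CON sizes were smaller than that of Asb12, from 0.44 to 0.75, and from 0.0312 to 0.11 in MUT. Asb12 is on the X chromosome. Of its neighbours there, Amer1 was rhythmic in CON (0.29, adjusted p = 0.0207, limma). Its MUT minus CON difference in daily mean was 0.0082 and did not pass (adjusted p = 0.879, limma). Zc4h2 rose in the daily mean in MUT by 0.23 (adjusted p = 0.00637, limma). In CON its rhythm size was 0.23 and did not pass (adjusted p = 0.235, limma). Such calls were made for 17.1% (CON rhythm) and 12.3% (higher in MUT) of all genes, so these hits are no result about the locus. The next protein-coding genes beside Gpm6a on chromosome 8 and beside Serpina3b were not among those tested. Asb12 correlated with the mesothelium markers at 0.541 over all arrays, 0.699 in CON and 0.019 in MUT, and with the progenitor markers at 0.544, 0.703 and -0.137. With the macrophage markers the values were 0.504 over all arrays, 0.577 in CON and 0.582 in MUT, and with the 4 tested skeletal muscle markers 0.257, 0.364 and 0.281. For the 9 adipocyte markers they were 0.498 over all arrays, 0.406 in CON and -0.457 in MUT. The part of these cells in the Asb12 result was not tested.

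The choice of the 3 genes by large CON rhythms, with peaks near or opposite one another, fixes in part how they correlate in CON, and the values are a description. Asb12 and Gpm6a correlated at 0.647 over the 12 CON arrays and at -0.051 over the 12 MUT arrays. Asb12 and Serpina3b correlated at -0.664 and 0.025, and Gpm6a and Serpina3b at -0.777 and -0.433. By size of the CON rhythm the genes ranked 5 (Asb12), 8 (Serpina3b) and 11 (Gpm6a) among the 2650 that passed in CON (17.1%). Cdkn1a, which is not one of the 3 genes, ranked 9 at 1.70. Below Gpm6a came Pnpla3 at rank 12 (1.63) and Fmo2 at rank 13 (1.61).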

How the data were processed

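RNA was extracted from eWAT with Trizol and biotin-labelled, per the labels' protocols. The deposited values are log2 signals per probe set made by the authors, and the submitters' processing notes name RMA and Affymetrix Expression Console. The sources used here give no versions, settings or genome build. The values ran from 4.16 to 14.5.

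Of the probe sets, 23521 carried 1 symbol, 1814 several and 9055 none. Symbols were updated by Entrez identifier to GRCm38.p6, where 193 found no match. The brightest probe set with 1 symbol stood for a gene, and genes under the 30th percentile were left out. Groups came from the titles. With limma 3.58.1 (R 4.3.3) a model with 1 mean for each group was fitted on the 24 arrays, which left 16 residual degrees of freedom. The 24-h rhythm was tested by a moderated F (2 df), and daily mean and 12-h alternation by two-sided moderated tests. Adjustment was made over 15526 genes by Benjamini-Hochberg, with a threshold of 0.05. The number of arrays limits the precision. The code was tested on simulated data, and matplotlib 3.10.9 (Python 3.11.15) drew the figures.

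The genes and lists were chosen with earlier results of these data known. Named genes are the 3 members, family members and up to 3 genes per other list past the threshold, Arntl and Nr1d1, and the 5 genes with the highest Pearson r to each member. Dim genes and single values of interest were added after their values were seen. Correlations are descriptions. Alternatives tried included leaving out each array, quantile normalization, a shift of arrays to a common median, the replicate number as a block, no filter or one at the 60th percentile, array weights, trended and robust variance, all probe sets, MUT arrays alone and an F test over 4 times. Leaving out the 3 arrays of narrowest signal spread was chosen after seeing the data.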

Additional observations from a re-analysis of the deposited data

How the results depend on the processing

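The daily mean of Asb12 stayed higher in MUT and past the threshold under all 32 alternatives that could be run for it, from 0.56 to 0.66. Its rhythm in MUT and that of Gpm6a passed under none. Asb12 and Serpina3b lie under the filter at the 60th percentile and have no value there. The daily mean difference of Gpm6a did not pass after quantile normalization (0.49), with trended and robust variance (0.53) and without 3 arrays of narrow spread (0.48), and was 0.42 to 0.63 with each array left out. That of Serpina3b did not pass after quantile normalization (-0.47), with array weights (-0.37), with trended and robust variance (-0.50) and without the 3 arrays (-0.44), and was -0.61 to -0.42 with each array left out. The Serpina3b rhythm in MUT passed with array weights (1.54) and was 0.70 to 1.47 with arrays left out. The 12-h alternation in MUT changed sign with single arrays left out, from -0.32 to 0.0527 for Gpm6a and from -0.22 to 0.17 for Serpina3b. The causes were not tested.

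Over all genes, the daily mean gave 1952 calls after quantile normalization, 2093 with the filter at the 60th percentile, where fewer genes were tested, 296 without the 3 arrays, which leaves 1 array in CON CT7, and 2146 (without CON CT13 replicate 1) to 4131 with each array left out. Rhythm calls in MUT numbered 555 with array weights and 26 to 141 with arrays left out: 26 and 33 without MUT CT7 replicates 1 and 3, 29 and 27 without MUT CT19 replicates 1 and 2, 141 and 107 without MUT CT13 replicates 1 and 2 and 131 without CON CT13 replicate 3. Alternation calls in CON numbered 8 with array weights, 2 with trended and robust variance and 2 to 8 with arrays left out (2 without replicate 1 of any CON time or CON CT19 replicate 2, 8 without MUT CT13 replicate 2). In MUT they numbered 12 with array weights, 4 without the 3 arrays and 1 to 9 with arrays left out (4, 3, 3 and 1 without MUT CT1, CT7 and CT13 replicate 3 and CT19 replicate 1). With the replicate number as a block the MUT sizes were 0.38, 1.23 and 1.17 for Asb12, Gpm6a and Serpina3b (adjusted p = 0.571, 0.204 and 0.178, limma), and 45 genes passed. The block changed no call of the 3 genes. No pairing of the mice by replicate number was seen, and a partial pairing could have been missed. Deviations of arrays that share a number had a median correlation of -0.0158 over 84 pairs, with 17 pairs over 0.1. Of 24 arrays, 4 correlated best with their own number.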
